A study of Mus musculus with 9 samples.

Results

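The genes whose products set, copy and remove DNA methylation, with those that place the Polycomb mark on lysine 27 of histone H3, were examined in cultured cells of the mouse heart by RNA sequencing. The 10 genes were taken by symbol from the table of 54532 genes: the DNA methyltransferase genes Dnmt1, Dnmt3a and Dnmt3b, the TET dioxygenase genes Tet1, Tet2 and Tet3, Uhrf1, Hells, and the Polycomb methyltransferase genes Ezh1 and Ezh2. All 10 were found, and all 10 passed the filter on low counts in each comparison. There were 9 libraries in 3 groups of 3, all from heart ventricle of C57BL/6 mice. pECDCs were primary cardiosphere-derived cells, untreated, grown out of epicardium pieces of 6-week-old animals. iECDCs were such cells made immortal with a lentivirus that carries hTERT, the catalytic subunit of human telomerase, under the CMV promoter, selected with puromycin and taken untreated at passage 30. The last group had received SB431542, which blocks the kinase of the type I receptor for TGF-β. For these cells the sample labels name immortalized cells of passage 30 that were treated for 3 days, whereas the methods of the study name an epithelial clone derived from pECDCs, so the starting cells are not certain, and if the methods hold, the group is a single clone. The titles of the pECDC samples carry passage 0 and the methods passage 3. The labels count 3 libraries per group and the methods 2 biological replicates, so the spread between libraries may be partly technical, and the p-values measure that spread alone.

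DNMT1 copies methylation of CpG sites onto the new strand after replication. UHRF1 brings it to the hemimethylated sites, and HELLS is a chromatin remodeller that opens packed DNA for methylation. DNMT3A and DNMT3B place methyl groups on sites that had none, and the TET enzymes oxidize 5-methylcytosine as the first step of its removal. EZH2 and EZH1 are alternative catalytic subunits of Polycomb repressive complex 2 (PRC2), which methylates lysine 27 of histone H3. EZH2 is known as the form of dividing cells and, with DNMT1, UHRF1 and HELLS, as a gene switched on by E2F factors at the start of S phase, whereas EZH1 is also present in resting cells.

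Because E2F factors are known to bind these promoters, the promoter windows of RefSeq on GRCm38.p6, which run from 250 bases before to 50 bases after a start, were searched on both strands for the 4 words TTTCCCGC, TTTCGCGC, TTTGCCGC and TTTGGCGC. None of these 4 words is its own reverse complement, and no matches overlapped in the windows of the 10 genes. All 10 genes had a window, 15 windows in all, and 4 genes held a match: Ezh2, Hells, Uhrf1 in window 2 and Dnmt1 in window 3 of the table. Of all 27025 genes with a window, 704 (2.6%) held a match, and of all 32851 windows 744 (2.26%). The 4 windows with a match are shown with the matched letters in capitals, and the Ezh1 window, without a match, is shown beside its paralogue. The positions are chr6:47594981-47595280 on the minus strand for Ezh2, chr19:38930740-38931039 on the plus strand for Hells, chr17:56304063-56304362 on the plus strand for Uhrf1, chr9:20952574-20952873 on the minus strand for Dnmt1 and chr11:101226414-101226713 on the minus strand for Ezh1.
Ezh2: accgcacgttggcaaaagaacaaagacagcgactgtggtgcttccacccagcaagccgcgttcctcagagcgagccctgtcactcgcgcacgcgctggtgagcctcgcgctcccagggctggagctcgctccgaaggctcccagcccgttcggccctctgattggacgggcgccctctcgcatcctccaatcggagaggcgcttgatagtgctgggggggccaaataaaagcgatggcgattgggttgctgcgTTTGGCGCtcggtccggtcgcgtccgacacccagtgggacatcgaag
Hells: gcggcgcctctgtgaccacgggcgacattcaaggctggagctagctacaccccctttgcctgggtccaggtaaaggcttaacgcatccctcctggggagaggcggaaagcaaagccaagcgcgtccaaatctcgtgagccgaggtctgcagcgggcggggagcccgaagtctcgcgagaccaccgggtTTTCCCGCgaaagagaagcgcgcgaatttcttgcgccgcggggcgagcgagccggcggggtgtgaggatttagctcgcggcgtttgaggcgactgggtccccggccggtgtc
Uhrf1: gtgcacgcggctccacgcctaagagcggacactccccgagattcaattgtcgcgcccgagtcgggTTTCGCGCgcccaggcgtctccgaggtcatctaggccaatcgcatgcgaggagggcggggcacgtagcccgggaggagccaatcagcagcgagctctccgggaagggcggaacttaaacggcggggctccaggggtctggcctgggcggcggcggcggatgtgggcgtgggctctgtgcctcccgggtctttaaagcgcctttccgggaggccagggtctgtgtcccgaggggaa
Dnmt1: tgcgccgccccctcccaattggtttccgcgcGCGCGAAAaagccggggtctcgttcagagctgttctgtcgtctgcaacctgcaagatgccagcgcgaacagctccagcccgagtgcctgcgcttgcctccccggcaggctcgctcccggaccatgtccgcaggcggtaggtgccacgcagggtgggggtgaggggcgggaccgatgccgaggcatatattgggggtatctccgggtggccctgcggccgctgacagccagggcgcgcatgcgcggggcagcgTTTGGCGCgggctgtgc
Ezh1: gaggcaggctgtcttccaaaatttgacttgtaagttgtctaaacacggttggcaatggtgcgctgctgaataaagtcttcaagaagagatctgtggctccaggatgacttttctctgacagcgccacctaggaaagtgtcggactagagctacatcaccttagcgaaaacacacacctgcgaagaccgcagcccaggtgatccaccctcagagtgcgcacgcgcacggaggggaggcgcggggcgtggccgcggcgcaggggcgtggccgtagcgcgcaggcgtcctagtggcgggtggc
The Ezh2 match began 4 bases past the start, and the Hells match began at position -62, where -1 is the base before the start. The Uhrf1 match began at position -185. Dnmt1 had a pair of matches, at -219 on the opposite strand and 34 bases past the start. Windows of the 10 genes held from 2 to 57 CpG dinucleotides, against a median of 7 over all windows, and the Tet2 window held the 57. A match describes letters only, and binding was not measured.

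Counts per library ranged from 16568306 to 23951392. Levels are given as FPKM, the deposited count scaled to gene length and library total, and differences as log2 fold changes of the counts in edgeR. A gene passed the test when its adjusted p-value over all tested genes was under 0.05. A pair of libraries stood apart from the others of their groups: iECDC replicate 3 and SB431542 replicate 2 differed from the other libraries of their groups with a chi-square of 24.9 to 71.5 per degree of freedom over genes, against 2.7 to 4.61 in the other pairs within a group, where 1 is the value that counting alone gives. Some of the results that rest on these libraries are given with and without them, and the others only with them. Markers of cardiac mesenchyme (6 genes) summed to between 652.8 and 1090 FPKM over the 9 libraries. Most of this sum was Col1a1, at 346 to 772 FPKM. In iECDCs against pECDCs Eng was higher (log2 0.35), Pdgfra (-0.57) and Col1a1 (-0.31) were lower, and the others did not pass. Pdgfra alone passed in SB431542-treated cells against iECDCs, where it was higher (0.96). Pecam1 and Tek of endothelium, Adgre1 of blood cells and Myh6, Actn2 and Nppa of cardiomyocytes had at most 3 counts in every library. Other markers of these cells were present. Tnnt2, a troponin gene of cardiomyocytes, had 83 to 101 counts in pECDCs, 133 to 262 in iECDCs and 7 to 34 after SB431542. It was higher in iECDCs than in pECDCs (log2 1.36). With 7 counts in SB431542 replicate 2, under the filter minimum of 10, Tnnt2 passed the filter in the SB431542 comparisons only through the untreated cells. Its lower counts after SB431542 are therefore a description. Cd68, a macrophage gene, had 13 to 60 counts and was lower after SB431542 than in pECDCs (-0.86). The epithelial markers were divided. Krt8, Epcam and Cdh1 had at most 3 counts in every library and Krt18 at most 4, whereas Krt19 had 712 to 1480 counts (18.2 to 37.9 FPKM) and was higher in iECDCs than in pECDCs (log2 0.64, adjusted p = 0.000374). The part of these cell types in the results was not tested. In such bulk RNA, fewer cells that express a gene and less RNA per cell cannot be told apart.

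Over the 9 libraries the levels of the 10 genes ran from 0.105 to 56.3 FPKM. The maintenance genes Uhrf1 (39.2 to 56.3 FPKM) and Dnmt1 (34.5 to 46.2 FPKM) were highest, and Hells (7.07 to 13.4 FPKM) and Ezh2 (7.32 to 16.9 FPKM) followed. Dnmt3a, Tet3 and Ezh1 lay between 1.56 and 3.79 FPKM. Tet2, Dnmt3b and Tet1 were lowest, from 0.105 to 0.666 FPKM. In pECDCs the levels of Hells and Ezh2 overlapped between libraries, as did those of Tet2 and Dnmt3b, and every other neighbour in the order was separate. In iECDCs Dnmt3a overlapped Tet3 and Tet2 overlapped Dnmt3b. In SB431542-treated cells Uhrf1 overlapped Dnmt1, Ezh2 overlapped Hells, and Tet3 overlapped both Dnmt3a and Ezh1. The order depends on the length that is used. The deposited length counts all exons of a gene, 6678 bases for Ezh2 against 2787 in its principal transcript and 16695 against 5944 for Tet3. Per kilobase of principal transcript, Uhrf1 and Dnmt1 overlapped in all 3 groups, Ezh2 came next in all 3, and Tet3 stood above Dnmt3a in all 3.

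**Figure D1:**
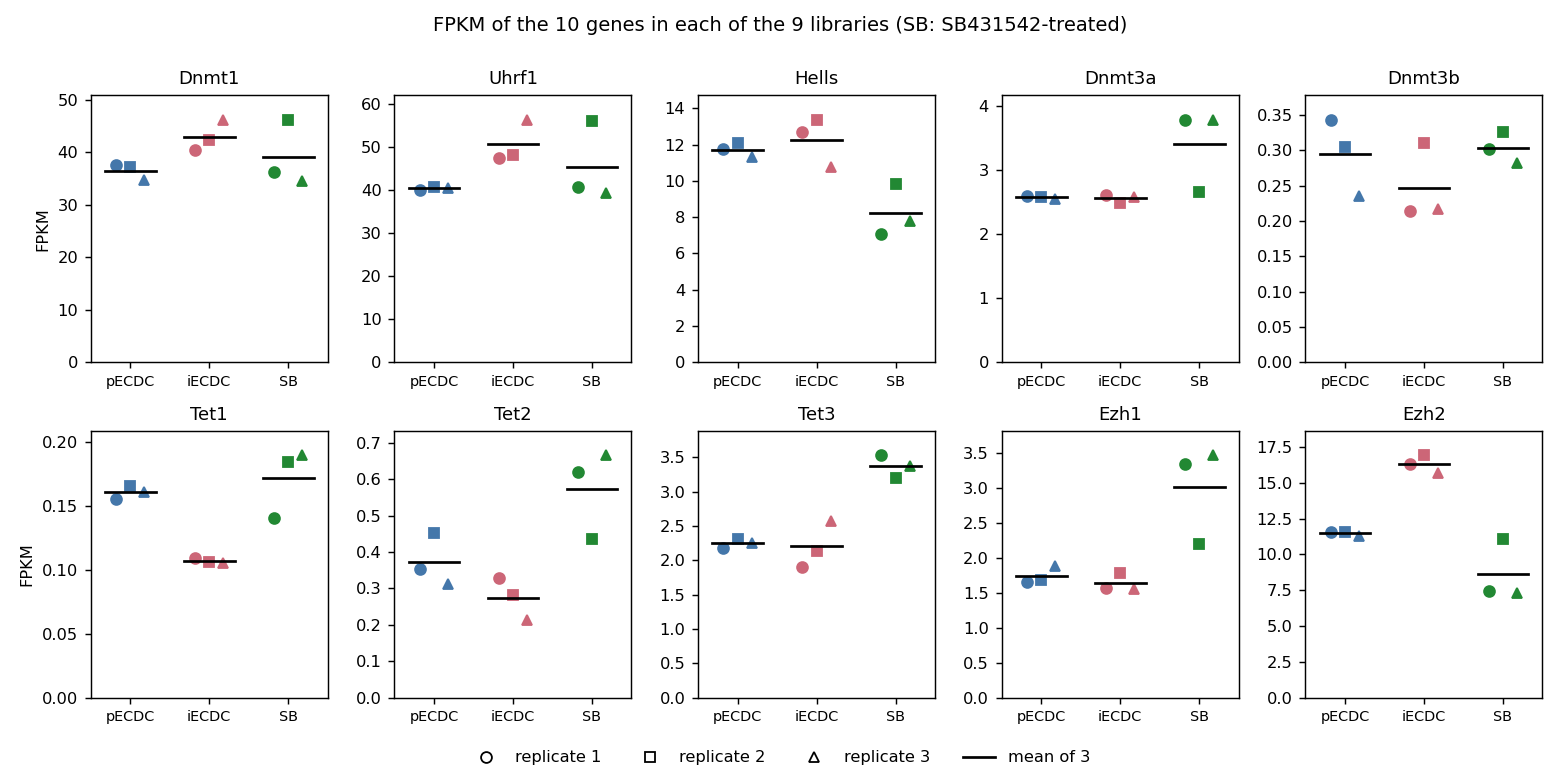
FPKM of the 10 genes (vertical axes, linear, from 0) in the 3 libraries of pECDCs, iECDCs and SB431542-treated cells (SB), with a symbol for each replicate and a bar at the mean. Ezh2 is highest in iECDCs (15.6 to 16.9 FPKM) and lowest in SB431542-treated cells (7.32 to 11.1 FPKM), and SB431542 replicate 2 lies nearer to the untreated cells than its group does for Dnmt3a, Tet2, Ezh1 and Ezh2.

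Immortalized cells of passage 30 were first compared with primary cells. These groups differ in hTERT, the lentivirus, puromycin selection and passage at once, and the parts of these cannot be told apart. Ezh2 and Uhrf1 rose, Tet1 fell, and the other 7 genes did not pass the test. Thus 2 of 10 genes were higher, against 7.21% of the 13752 genes tested, and 1 was lower, against 9.21%; together 3 of 10 passed, against 16.4%. The libraries of the groups did not overlap for 4 of the 10, against 39.9% of all tested genes. The median log2 fold change of the 10 was -0.03, beside -0.0018 over all tested genes.

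Ezh2 (ENSMUSG00000029687, chromosome 6, 47530139 to 47595341, minus strand) stood at 11.5, 11.6 and 11.3 FPKM in pECDC replicates 1, 2 and 3 and at 16.3, 16.9 and 15.6 FPKM in iECDCs. Every iECDC library was above every pECDC library. The rise was 1.41-fold (log2 0.49 ± 0.0598 SE, edgeR adjusted p = 0.000822), and it passed in 14 of 15 alternative settings. The exception was the fit with all 9 libraries, with an adjusted p of 0.0827. Ezh1 (ENSMUSG00000006920, chromosome 11, 101191115 to 101226463, minus strand) stood at 1.66, 1.69 and 1.88 FPKM in pECDCs and at 1.58, 1.79 and 1.56 FPKM in iECDCs. The groups overlapped, with a log2 fold change of -0.10 and a 95% interval from -0.34 to 0.14.

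Uhrf1 (ENSMUSG00000001228, chromosome 17, 56303321 to 56323486, plus strand) stood at 40.1, 40.6 and 40.5 FPKM in pECDCs and at 47.3, 48.2 and 56.3 FPKM in iECDCs. It was higher in each iECDC library, 1.24-fold in edgeR (log2 0.31, SE 0.0751, adjusted p = 0.0231), and iECDC replicate 3 gave the highest value. Without that library the difference was 0.23 (adjusted p = 0.000332). It passed in 11 of 15 alternatives, and not with all 9 libraries in the fit (adjusted p = 0.228) or without any one pECDC library (0.0939 to 0.101). Dnmt1 (ENSMUSG00000004099, chromosome 9, 20907209 to 20959888, minus strand) stood at 37.6, 37.1 and 34.7 FPKM in pECDCs and at 40.4, 42.3 and 46.2 FPKM in iECDCs. The groups did not overlap, but the log2 difference of 0.22 (95% interval 0.06 to 0.38) had an adjusted p of 0.0606 in edgeR. It passed in 3 of 15 alternatives, with adjusted p = 0.0306 in DESeq2, 0.0456 without iECDC replicate 1 and 0.00803 without iECDC replicate 3. Hells (ENSMUSG00000025001, chromosome 19, 38930915 to 38971051, plus strand) stood at 11.8, 12.1 and 11.3 FPKM in pECDCs and at 12.7, 13.4 and 10.8 FPKM in iECDCs. Replicate 3, the library that stood apart, was the lowest of the iECDCs. The log2 difference was 0.06 (95% interval -0.14 to 0.25), and without replicate 3 it was 0.14 with an adjusted p of 0.0365.

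Of the TET genes, Tet1 was lower in iECDCs and the other two did not pass. Tet1 (ENSMUSG00000047146, chromosome 10, 62804570 to 62908996, minus strand) had 59, 51 and 58 counts in pECDCs and 34, 27 and 25 in iECDCs. In FPKM these were 0.156, 0.166 and 0.161 against 0.109, 0.106 and 0.105, with no overlap. The difference of -0.60 (SE 0.177) passed narrowly, with an edgeR adjusted p of 0.0496, and it passed in 2 of 15 alternatives, where adjusted p ranged from 0.0395 to 0.255. Tet2 (ENSMUSG00000040943, chromosome 3, 133463679 to 133545139, minus strand) stood at 0.353, 0.453 and 0.312 FPKM in pECDCs and at 0.329, 0.281 and 0.212 FPKM in iECDCs. The groups overlapped, and the difference of -0.44 (95% interval -0.89 to 0.02) did not pass (adjusted p = 0.172). Tet3 (ENSMUSG00000034832, chromosome 6, 83362373 to 83459084, minus strand) stood at 2.18, 2.31 and 2.25 FPKM in pECDCs and at 1.90, 2.14 and 2.57 FPKM in iECDCs, on both sides of the pECDC libraries.

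The de novo methyltransferase genes overlapped between these groups. Dnmt3a (ENSMUSG00000020661, chromosome 12, 3806007 to 3914443, plus strand) stood at 2.59, 2.58 and 2.55 FPKM in pECDCs and at 2.60, 2.49 and 2.58 FPKM in iECDCs. The log2 difference was -0.02, with a 95% interval from -0.16 to 0.12. Dnmt3b (ENSMUSG00000027478, chromosome 2, 153649450 to 153687730, plus strand) stood at 0.343, 0.305 and 0.235 FPKM in pECDCs and at 0.213, 0.310 and 0.217 FPKM in iECDCs. With 17 to 43 counts per library in these groups, its interval was wide, from -0.86 to 0.32. The count of genes that passed fell from 3 to 1 without any one of the 3 pECDC libraries, and it was 4 without iECDC replicate 3. Calls over all genes moved too, from 2258 of 13752 tested to 4467 without iECDC replicate 3.

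**Figure D2:**
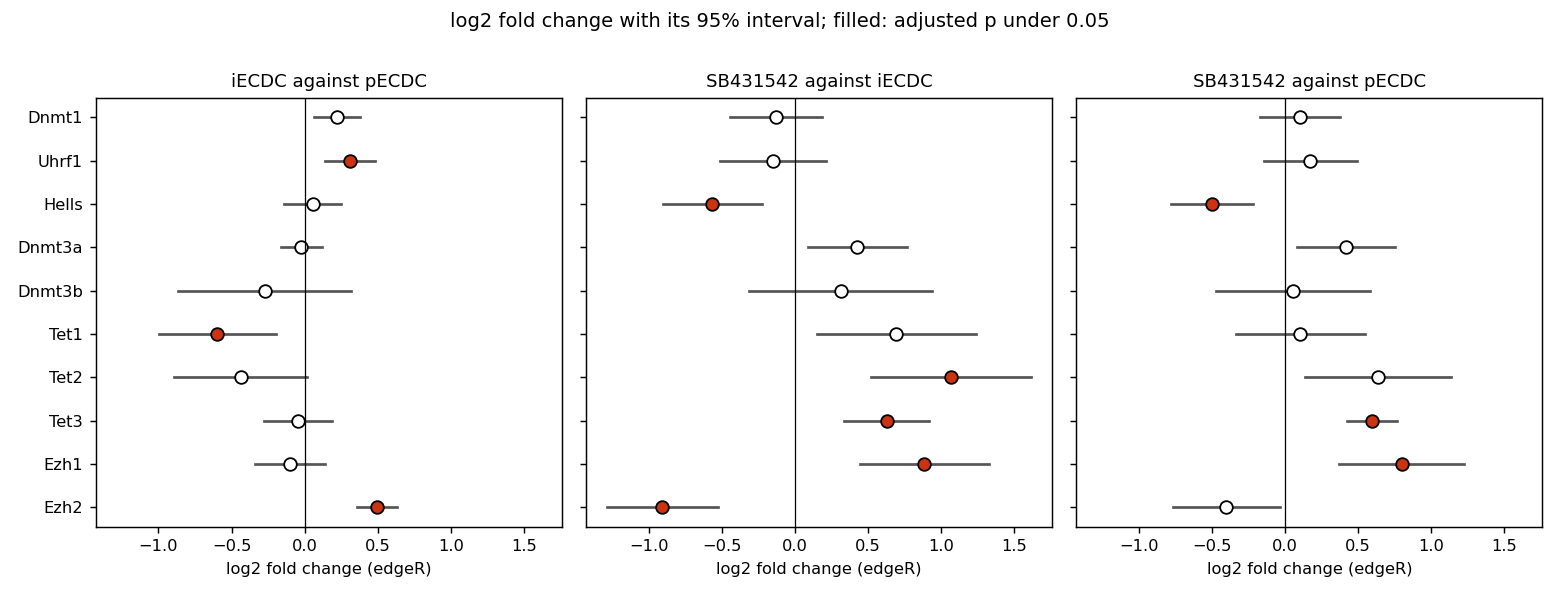
Log2 fold change of each of the 10 genes in edgeR (horizontal axis) with its 95% interval (line) in the 3 comparisons of 3 libraries against 3; filled points have an adjusted p-value under 0.05. Ezh2 lies at 0.49 in iECDCs against pECDCs and at -0.91 in SB431542-treated cells against iECDCs, while Tet2, Ezh1 and Tet3 lie at 1.07, 0.88 and 0.63 in the latter.

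SB431542-treated cells were next compared with untreated iECDCs, the comparison of TGF-β receptor inhibition as the labels describe it. Tet2, Ezh1 and Tet3 rose, and Ezh2 and Hells fell. Of the 10 genes, 3 were higher, against 16.0% of 13559 genes tested, and 2 were lower, against 14.0%; together 5 of 10 passed, against 30.0%. The libraries did not overlap for 7 of the 10, against 46.5% of all genes. The median log2 fold change was 0.37, beside 0.0015 over all tested genes. Since the cells of this group are named differently by the labels and the methods, a difference between clones or passages and the treatment cannot be told apart.

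The methyltransferase genes of PRC2 moved in opposite directions. Ezh2 stood at 7.45, 11.1 and 7.32 FPKM in SB431542 replicates 1, 2 and 3, all below the 15.6 to 16.9 FPKM of iECDCs. The level was 1.87-fold lower (log2 -0.91 ± 0.165 SE, edgeR adjusted p = 0.00669), and the fall passed in all 16 alternatives run. Ezh1 stood at 3.35, 2.20 and 3.47 FPKM, all above the 1.56 to 1.79 FPKM of iECDCs. The rise was 1.85-fold (log2 0.88, SE 0.192, adjusted p = 0.0126) and passed in 14 of 16 alternatives. SB431542 replicate 2 was the library nearest to iECDCs in both genes, and without it the differences were -1.13 for Ezh2 and 1.06 for Ezh1.

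The ratio of the paralogues within a library does not depend on the scaling between libraries. Ezh2 was 6.98, 6.86 and 5.98 times Ezh1 in pECDCs, 10.3, 9.46 and 10.1 times in iECDCs and 2.23, 5.03 and 2.11 times in SB431542-treated cells, on the FPKM scale. None of the groups overlapped. The difference in mean log2 ratio was 0.59 for iECDCs against pECDCs, -1.79 for SB431542-treated cells against iECDCs and -1.20 for SB431542-treated cells against pECDCs. Each of these gave p = 0.1 in an exact permutation test, two-sided, the smallest p that 3 libraries against 3 allow, and an adjusted p of 0.3 over the 9 tests of ratios, so that no ratio could pass. Per kilobase of principal transcript, Ezh2 made up 88.99% to 90.4% of the sum of both in pECDCs, 92.74% to 93.3% in iECDCs and 73.99% to 87.17% in SB431542-treated cells. Ezh2 thus remained the more abundant transcript in each of the 9 libraries. The ratios of Dnmt3a to Dnmt3b and of Uhrf1 to Dnmt1 overlapped between all groups, with exact permutation p-values from 0.2 to 0.5 (adjusted 0.45 to 0.5 over the 9 tests).

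**Figure D3:**
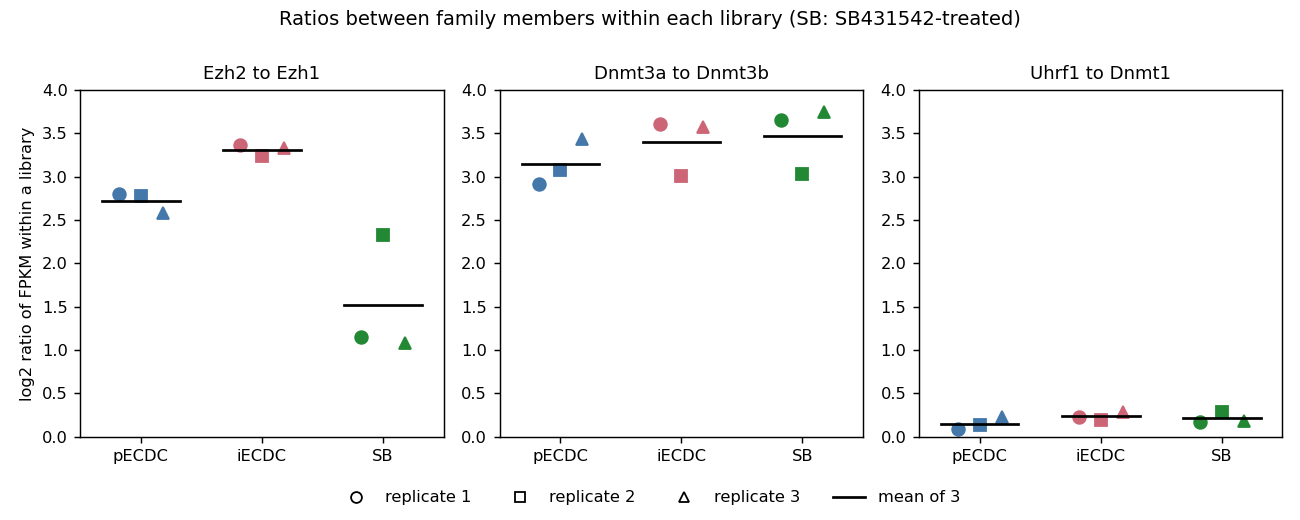
Log2 ratio of FPKM within each library (vertical axis, from 0 to 4) for Ezh2 to Ezh1, Dnmt3a to Dnmt3b and Uhrf1 to Dnmt1, with a symbol for each replicate and a bar at the mean of 3. The Ezh2 to Ezh1 ratio separates the 3 groups, with means of 2.72 in pECDCs, 3.31 in iECDCs and 1.52 in SB431542-treated cells, and the other ratios overlap.

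Among the TET genes, Tet2 stood at 0.619, 0.437 and 0.666 FPKM in SB431542-treated cells (155 to 203 counts), above the 0.212 to 0.329 FPKM of every iECDC library. It rose 2.10-fold (log2 1.07, SE 0.238, edgeR adjusted p = 0.0138), the largest rise of the 10 genes in this comparison, and passed in 13 of 16 alternatives. Tet3, the most abundant of the 3, rose 1.55-fold, from 1.90 to 2.57 FPKM in iECDCs to 3.54, 3.21 and 3.38 FPKM (log2 0.63, SE 0.127, adjusted p = 0.00983), and passed in 15 of 16. Tet1 stood at 0.140, 0.185 and 0.190 FPKM, above every iECDC library, but on 38 to 60 counts the log2 difference of 0.69 (95% interval 0.15 to 1.24) did not pass (adjusted p = 0.0575). Tet3 made up 79.8% to 83.77% of the summed TET FPKM in SB431542-treated cells and 81.26% to 89% in iECDCs, so that the levels rose while the shares overlapped.

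The genes of maintenance differed between the SB431542 libraries. Hells stood at 7.07, 9.85 and 7.77 FPKM, all below the 10.8 to 13.4 FPKM of iECDCs, and fell 1.48-fold (log2 -0.57, SE 0.147, edgeR adjusted p = 0.0235). The fall passed in 12 of 16 alternatives. Dnmt1 stood at 36.3, 46.2 and 34.5 FPKM and Uhrf1 at 40.6, 56.0 and 39.2 FPKM. Replicate 2 was at the level of the highest iECDC library in both genes, and the other 2 libraries were below every iECDC library. The differences of -0.13 for Dnmt1 (adjusted p = 0.501) and -0.15 for Uhrf1 (adjusted p = 0.497) did not pass. Without replicate 2 both were lower, with differences of -0.27 for Dnmt1 (adjusted p = 0.0421) and -0.33 for Uhrf1 (adjusted p = 0.0249).

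Dnmt3a stood at 3.79, 2.66 and 3.78 FPKM in SB431542-treated cells, above the 2.49 to 2.60 FPKM of every iECDC library, with replicate 2 again the nearest. The difference of 0.43 (95% interval 0.09 to 0.77) did not pass in edgeR (adjusted p = 0.0606), and without replicate 2 it was 0.57 with an adjusted p of 0.000533. Dnmt3b stood at 0.302, 0.326 and 0.282 FPKM and overlapped iECDCs (log2 0.31, 95% interval -0.31 to 0.94). Dnmt1 held 89.46% to 93.92% of the summed FPKM of the 3 methyltransferases in SB431542-treated cells and 93.48% to 94.3% in iECDCs. In all, 8 of the 10 genes passed without SB431542 replicate 2. The count was 3 without iECDC replicate 1 or SB431542 replicate 3 and 2 without iECDC replicate 2 or SB431542 replicate 1. Calls over all genes moved too, from 4061 of 13559 tested to as many as 7001 with 1 library left out.

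Against pECDCs, the same SB431542 libraries gave a comparison that shares its treated samples with the one above. Ezh1 and Tet3 were higher and Hells was lower. The counts were 2 of 10 higher, against 17.9% of 14015 genes tested, and 1 of 10 lower, against 17.0%; the 3 of 10 in all stood beside 34.8%. The libraries did not overlap for 5 of 10, against 51.5% of all genes. The median log2 fold change was 0.14, beside 0.0068 over all tested genes. Ezh1 was 1.74-fold higher (log2 0.80, SE 0.183, edgeR adjusted p = 0.0153) and Tet3 1.51-fold higher (log2 0.60, SE 0.0726, adjusted p = 0.00163). Hells was 1.42-fold lower (log2 -0.50 ± 0.119 SE, adjusted p = 0.0178). Each of the SB431542 libraries lay beyond every pECDC library for these genes. Tet3 passed in 15 of 15 alternatives, Ezh1 in 11 and Hells in 10.

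Ezh2 was below every pECDC library in the 3 SB431542 libraries, but replicate 2, at 11.1 FPKM, was just under the lowest pECDC value of 11.3. The difference of -0.40 (95% interval -0.77 to -0.04) did not pass in edgeR (adjusted p = 0.0842), and without replicate 2 it was -0.63 (adjusted p = 4.83e-09). Dnmt3a likewise lay above every pECDC library with a difference of 0.42 (adjusted p = 0.0577), and Tet2 overlapped pECDCs with 0.63 (adjusted p = 0.0545). Without replicate 2 these were 0.57 (adjusted p = 3.78e-08) and 0.81 (adjusted p = 5.83e-05). Dnmt1, Uhrf1, Tet1 and Dnmt3b overlapped pECDCs, with differences of 0.10, 0.17, 0.11 and 0.05. Tet1 thus stood at 0.140 to 0.190 FPKM after SB431542 and at 0.156 to 0.166 FPKM in pECDCs, with iECDCs below both. In this comparison 6 of the 10 genes passed without SB431542 replicate 2, and 1 passed without SB431542 replicate 1 or 3 or without pECDC replicate 1 or 2. Leaving out SB431542 replicate 2 also raised the calls over all genes, from 4881 of 14015 tested to 9188.

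The counts of the surrounding lists stand beside the shares of all tested genes that passed, which were 16.4% in iECDCs against pECDCs, 30.0% in SB431542-treated cells against iECDCs and 34.8% against pECDCs. The partners of the EZH enzymes in PRC2 moved in both directions. EED binds the methylated histone tail and SUZ12 holds the complex together, and RBBP4 and RBBP7 bind histones. Of 9 PRC2 subunits and cofactors, 1 was higher and 0 lower in iECDCs against pECDCs, with a median of 0.02. Rbbp4 rose from 22.4, 22.0 and 23.1 FPKM to 27.2, 26.8 and 34.3 FPKM (log2 0.37, SE 0.0948, edgeR adjusted p = 0.0280), whereas Eed (-0.02), Suz12 (0.02) and Rbbp7 (0.13) did not pass. In SB431542-treated cells against iECDCs, 1 was higher and 2 lower of 9, with a median of -0.11. Eed fell 1.60-fold (log2 -0.68, SE 0.134, adjusted p = 0.00916), to 7.15, 7.95 and 8.12 FPKM from 10.5 to 14.1 FPKM in iECDCs, and replicate 2 did not stand apart. Aebp2, a DNA-binding cofactor, fell (log2 -0.48), and Phf19, which brings PRC2 to methylated H3 lysine 36, rose (log2 0.63). Suz12 (-0.16), Rbbp4 (-0.07) and Rbbp7 (-0.35) did not pass. Against pECDCs Phf19 was higher (log2 1.10) and Eed lower (log2 -0.69, adjusted p = 0.00145), and the median was -0.20.

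**Figure D4:**
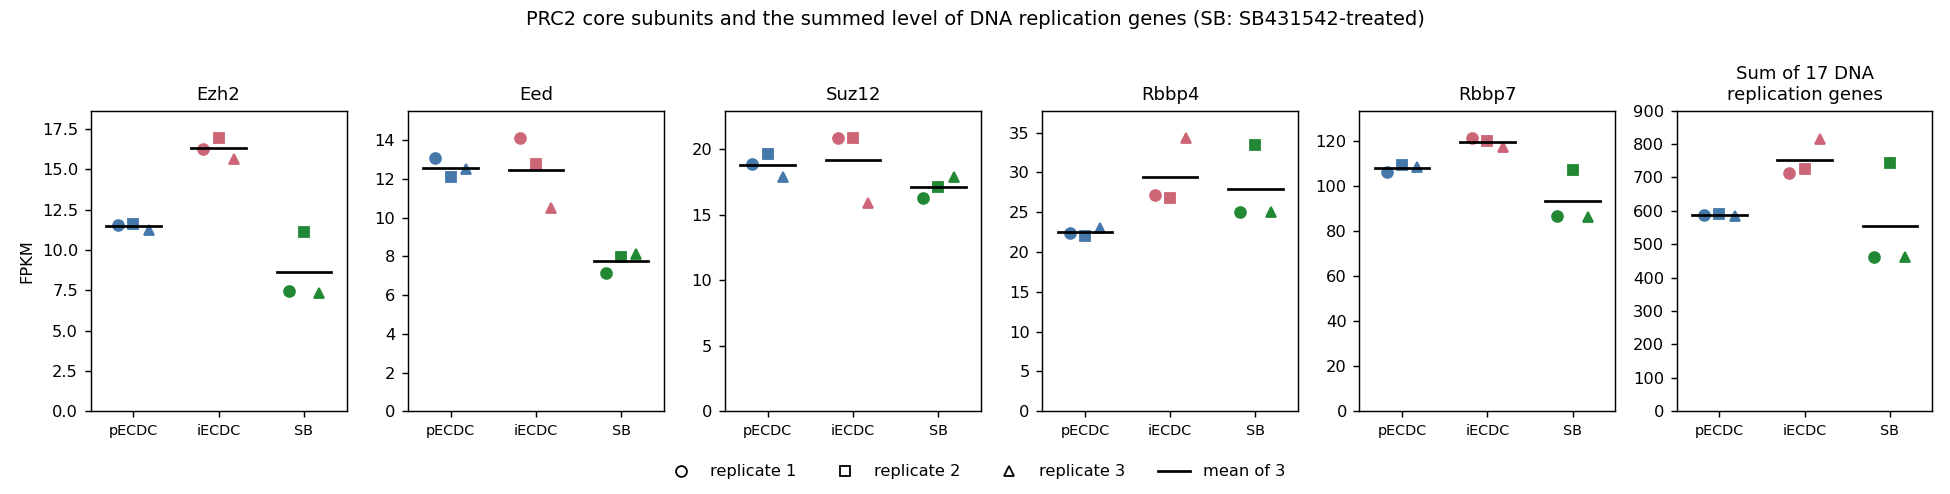
FPKM (vertical axes, linear, from 0) of the PRC2 core subunit genes Ezh2, Eed, Suz12, Rbbp4 and Rbbp7, and the summed FPKM of 17 DNA replication genes, in the 3 libraries of each group, with a symbol for each replicate and a bar at the mean. Eed is at 7.15 to 8.12 FPKM in all 3 SB431542 libraries, while Ezh2, Rbbp4, Rbbp7 and the replication sum are higher in SB431542 replicate 2 than in replicates 1 and 3.

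The summed level of the DNA replication genes had its highest group mean in iECDCs, as Ezh2 did, and SB431542 replicate 2 stood apart in it too. The exceptions among single genes were Mcm7 and E2f1, whose means were higher after SB431542. The 17 genes, among them the MCM helicase and cyclin E genes, summed to 587.9, 591 and 585.2 FPKM in pECDC replicates 1, 2 and 3, to 713.7, 725.2 and 815.8 FPKM in iECDCs and to 461.5, 743.7 and 461.7 FPKM in SB431542-treated cells. SB431542 replicate 2 was thus at the level of iECDCs and the other 2 were below pECDCs. Within iECDCs, replicate 3 had the highest sum and the lowest Ezh2 level. In iECDCs against pECDCs 10 of 17 were higher and 0 lower (median 0.34), led by Mcm5 (0.48), Rrm2 (0.45), Mcm7 (0.44) and Cdt1 (0.40). In SB431542-treated cells against iECDCs 6 of 17 were lower and 0 higher (median -0.38), led by Rrm2 (-1.25), Ccne1 (-0.94), Ccne2 (-0.88) and Cdc6 (-0.65). Against pECDCs 1 was higher, E2f1 (0.46), and 1 lower, Ccne2 (-0.63). Of 10 mitosis genes, 4 were higher in iECDCs against pECDCs, 3 were lower after SB431542 against iECDCs and 1 was higher against pECDCs. These are 40% of the list beside 16.4% of all genes, 30% beside 30.0% and 10% beside 34.8%. The 3 that fell after SB431542 were Aurka (-0.72), Cdk1 (-0.61) and Plk1 (-0.42). The part of cell division in the differences of Ezh2, Hells, Uhrf1 and Dnmt1 was not tested.

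PRC1, which binds the mark of PRC2 and ubiquitinates histone H2A, gave calls below the share of all genes in iECDCs against pECDCs (10% beside 16.4%) and near it after SB431542 (30% beside 30.0% against iECDCs and 35% beside 34.8% against pECDCs). Among 20 subunits, Phc2 (0.61) was higher in iECDCs than in pECDCs. In SB431542-treated cells against iECDCs, 4 were higher and 2 lower, and the largest change was in Cbx7, a chromodomain subunit that binds trimethylated H3 lysine 27. Cbx7 stood at 0.451, 0.450 and 0.351 FPKM in iECDCs and at 1.44, 0.850 and 1.73 FPKM in SB431542-treated cells (log2 1.69, SE 0.292, edgeR adjusted p = 0.00554). Cbx6 (0.81) and Phc1 (0.63) rose with it, and Phc2 (-0.74) fell. Against pECDCs 5 were higher and 2 lower, and Cbx7 (1.42) and Cbx6 (0.81) were the largest rises. The medians of the 20 were -0.08, 0.18 and 0.05 in the 3 comparisons. Of 5 tested genes that remove Polycomb marks, 0 passed in edgeR in iECDCs against pECDCs (1 at an unadjusted p under 0.05, 0 in DESeq2) and 0 in SB431542-treated cells against iECDCs (2 unadjusted, 1 in DESeq2), and Asxl1 (0.54) was higher against pECDCs. After SB431542 all 5 differences were above 0 in both comparisons (medians 0.40 and 0.22), and without SB431542 replicate 2, 4 of the 5 were higher against iECDCs and 5 of 5 against pECDCs. Calls over all genes rose without that library too, against pECDCs from 4881 of 14015 tested to 9188.

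Calls among the cofactors of the methyltransferases depended on SB431542 replicate 2, as calls over all genes did. Of 9, Mat2a (0.31), which makes the methyl donor, and Cdca7 (0.29), the partner of HELLS, were higher in iECDCs against pECDCs. In SB431542-treated cells 0 of 9 passed against iECDCs (0 at an unadjusted p under 0.05, 0 in DESeq2) and 0 against pECDCs (1 unadjusted, 0 in DESeq2). Without SB431542 replicate 2, 4 of 9 were lower against iECDCs and 5 of 9 lower against pECDCs. Over all genes, calls then rose from 4881 of 14015 tested to 9188 against pECDCs. Against iECDCs they went from 4061 of 13559 to as many as 7001. Of 7 readers of methylated CpG, Zbtb4 fell in iECDCs (-0.39). Among the readers that rose after SB431542 against iECDCs were Zbtb4 (0.85) and Mbd1 (0.52).

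The list of steps around the oxidation of 5-methylcytosine held members that rose and members that fell. In iECDCs against pECDCs 1 of 11 tested was higher and 3 were lower. Gadd45a, a stress gene linked to DNA repair and demethylation, fell from 5.85, 6.61 and 6.46 FPKM to 2.72, 2.93 and 1.77 FPKM (log2 -1.35, SE 0.173, edgeR adjusted p = 0.00113). Ogt (-0.46), whose product binds TET proteins, and Cxxc5 (-0.31) also fell, and Gadd45b (0.35) rose. In SB431542-treated cells against iECDCs 5 of 10 were higher and 3 lower. Gadd45a rose (1.90) to 10.5, 4.85 and 12.4 FPKM and Ogt rose (0.82), while Gadd45g (-1.76) and Gadd45b (-1.13) fell. Against pECDCs 2 of 11 were higher and 4 lower. Among the lower was Cxxc4, with 0 to 2 counts per library after SB431542 and 20 to 30 in pECDCs, which passed the filter on low counts only through pECDCs. Many of these genes have roles outside demethylation.

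**Figure D5:**
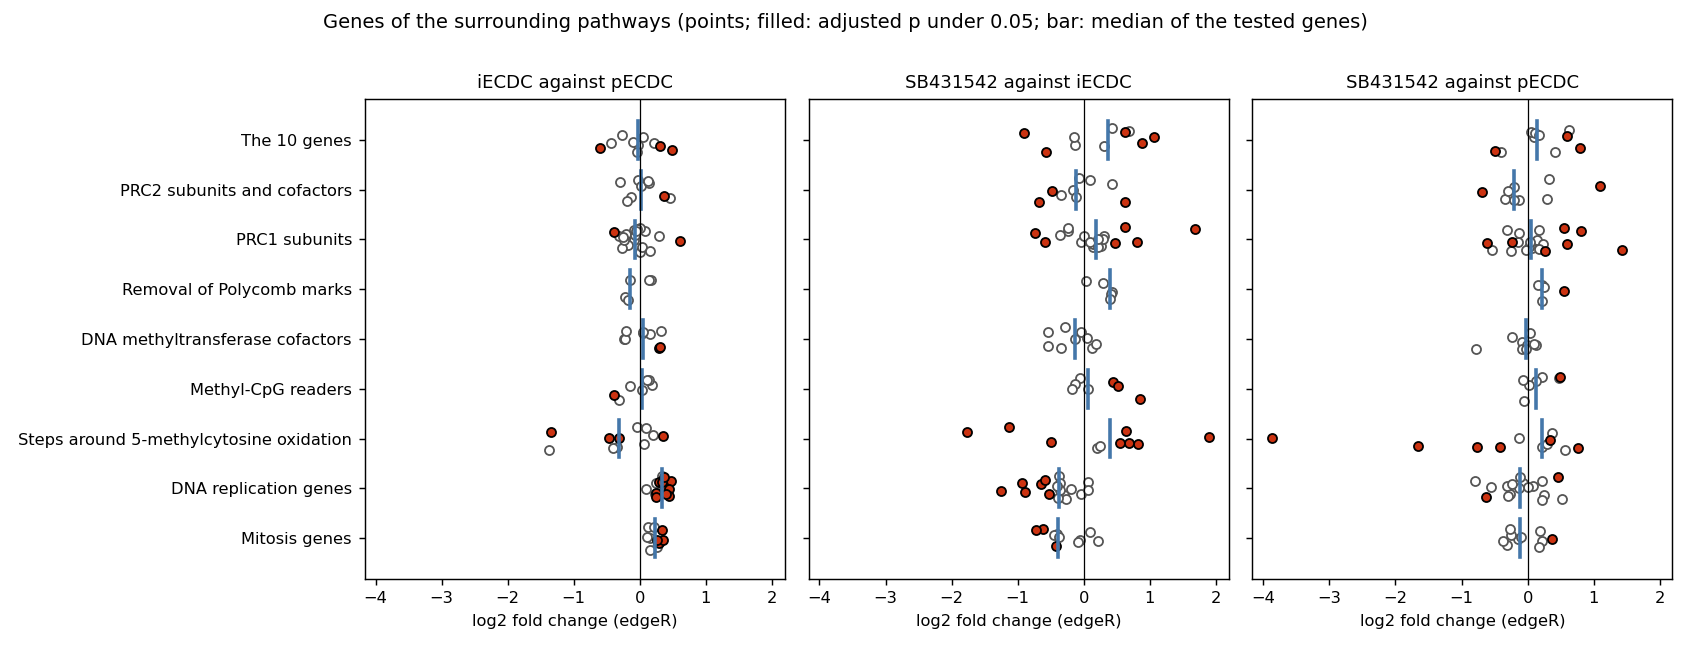
Log2 fold change in edgeR (horizontal axis) of the tested genes of 9 lists in the 3 comparisons; filled points have an adjusted p-value under 0.05 and blue bars mark the median of the tested genes. The replication genes have a median of 0.34 in iECDCs against pECDCs and of -0.38 in SB431542-treated cells against iECDCs, and the PRC2 partners have medians of 0.02 and -0.11.

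The counts of these lists (9 PRC2, 20 PRC1, 9 cofactor, 17 replication and 10 mitosis genes) moved when 1 library was left out. So did the counts over all genes. These rose from 2258 of 13752 tested to 4467 without iECDC replicate 3 in iECDCs against pECDCs. After SB431542 they went from 4061 of 13559 to as many as 7001 against iECDCs. Against pECDCs they went from 4881 of 14015 to 9188 without SB431542 replicate 2. In iECDCs against pECDCs the list counts were highest without iECDC replicate 3, with 4 PRC2, 5 PRC1, 16 replication and 6 mitosis genes past the test. The list counts were lowest without a pECDC library, with 0 PRC2, 1 PRC1, 3 replication and 0 mitosis genes. In SB431542-treated cells against iECDCs they were highest without SB431542 replicate 2, with 4 PRC2, 11 PRC1, 4 cofactor, 14 replication and 6 mitosis genes. They were lowest without iECDC replicate 1 or 2, with 1 PRC2, 3 PRC1, 0 replication and 0 mitosis genes. Against pECDCs, 8 PRC2, 14 PRC1, 5 cofactor, 15 replication and 8 mitosis genes passed without SB431542 replicate 2.

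Germline genes that DNA methylation keeps silent in somatic cells were examined as well. Of 14, only Ddx4, an RNA helicase of germ cells, had enough counts for the test. Ddx4 had 40, 25 and 24 counts in pECDC replicates 1, 2 and 3, 0, 0 and 1 in iECDCs, and 23, 18 and 42 in SB431542-treated cells. The iECDC libraries did not overlap the others. Since it passed the filter on low counts only through the groups in which it is high, its differences from iECDCs are given as a description, with no test. Summed over the libraries and divided by their totals, it was 71.8 times higher in pECDCs than in iECDCs and 80.6 times higher in SB431542-treated cells. Both ratios rest on 1 count in iECDCs and are imprecise. The Ddx4 level was low in every group, at most 0.771 FPKM. Piwil2 and Tdrd1 of the same list, chosen after their values were seen, did not share its pattern. Piwil2 had 14, 4 and 4 counts in pECDCs, 9, 9 and 7 in iECDCs and 5, 4 and 2 after SB431542. Tdrd1 had 9, 14 and 9 counts in pECDCs, 3, 2 and 2 in iECDCs and 1, 3 and 0 after SB431542. DNA methylation itself was not measured.

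Genes that overlap the 10 in the annotation had few counts. Dnmt3aos, Gm42567 and Gm26625 share exon bases with Dnmt3a, Tet2 and Ezh2 on the opposite strand, 133, 43 and 174 bases. They had at most 6, 1 and 8 counts in a library, against 55 to 2195 counts of the 3 members. Whether the counting used the strand is not given in the sources used here, so reads in the shared bases may have been assigned to either gene.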

How the data were processed

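Sequencing reads were counted per gene by the authors, who deposited the counts without normalization for 54532 genes in 9 libraries. FPKM was deposited by the authors too, and all but 1 value could be computed from the count, the gene length and 1 scaling constant per library. Columns with the authors' own comparisons, fold changes and p-values, were not used. The submitters' processing notes list TopHat2 2.0.9, Bowtie2 2.0.6 and mm9, whereas the start and end of 53499 genes in the deposited table equal those of GENCODE M21 on GRCm38, and coordinates are given on that build. The labels name a TruSeq kit and the methods of the study a NEBNext or oligo(dT) kit. The counting program and its use of the strand are not given in the sources used here. No per-sample column was left out.

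Groups came from the sample labels. Counts were tested in R 4.3.3 with edgeR 4.0.16 (quasi-likelihood test, TMM, filterByExpr with a minimum count of 10 and a minimum total of 15, only the libraries of both groups in the fit, Benjamini-Hochberg adjustment over all tested genes, threshold 0.05). Ratios were compared with exact permutation tests, two-sided. A floor of 3 counts per library marked genes as barely detected, and it covers counting error only. Total counts were 19462912 to 23951392 in pECDCs, 16568306 to 20204216 in iECDCs and 17063137 to 20849975 in SB431542-treated cells. Sequences of promoters are those of RefSeq on GRCm38.p6. The edgeR and DESeq2 fits were tested on simulated counts with the library sizes of pECDCs and iECDCs, without a library that stood apart. The other steps were not tested in this way.

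The 10 genes and the lists were chosen with earlier results of these data known. The 10 genes were always named, as were the PRC2 core genes. Genes of other lists were named where they passed the test, at most the 4 with the largest change per list and comparison, or as markers at no more than 3 counts in every library, and genes that overlap a member by that relation. Other names are marked as chosen after their values were seen. Single results of a few listed genes are not reported here. Alternatives were DESeq2 1.42.0, RLE and upper-quartile scaling, no filter, a minimum of 10 counts per library, a joint fit of the 9 libraries, a block for the replicate number, limma 3.58.1 on log2 FPKM with a pseudocount of 1 or 0.1, a required log2 fold change of 1, counts with 0.5 added for the ratios, and leaving out each library. Leaving out both libraries that stood apart and the length of the principal transcript were added after seeing the data. Tables and figures were made with pandas 2.3.3, matplotlib 3.10.9, scipy 1.17.1 and numpy 2.4.6 in Python 3.11.15.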

Additional observations from a re-analysis of the deposited data

How the results depend on the processing

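In iECDCs against pECDCs, where 3 of the 10 genes and 2258 of all genes passed, 0 of the 10 genes (3 at an unadjusted p under 0.05 in edgeR) and 671 of all genes passed with all 9 libraries in the fit. With a log2 fold change of at least 1 as well, 0, 1 and 0 of the 10 genes and 512, 1434 and 1330 of all genes passed in iECDCs against pECDCs, SB431542 against iECDCs and SB431542 against pECDCs. In SB431542 against pECDCs, DESeq2 gave 5 of the 10 genes, no filter on low counts 6 and all 9 libraries 6. Without both iECDC replicate 3 and SB431542 replicate 2, 8 of the 10 and 8951 of all genes passed against iECDCs.

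With 1 library left out at a time, the 10 genes gave 1 to 4 calls and all genes 1036 to 4467 in iECDCs against pECDCs, 2 to 8 and 1707 to 7001 in SB431542 against iECDCs, and 1 to 6 and 2453 to 9188 in SB431542 against pECDCs. The lowest counts came without a library near its group's others, the highest without iECDC replicate 3 or SB431542 replicate 2. Log2 differences close to 0 changed sign, without the library named. In iECDCs against pECDCs Tet3 ranged from -0.166 to 0.0544 (iECDC replicate 1) and Hells from -0.0081 (iECDC replicate 2) to 0.145. In SB431542 against pECDCs Dnmt1 ranged from -0.0348 to 0.182, Uhrf1 from -0.0085 to 0.265 (both SB431542 replicate 2) and Dnmt3b from -0.0951 (pECDC replicate 3), with -0.0059 (SB431542 replicate 2), to 0.177. The log2 ratio of Dnmt3a to Dnmt3b in SB431542 against iECDCs ranged from -0.11 to 0.30, with -0.0071 and -0.0556 in between, and that of Uhrf1 to Dnmt1 from -0.0603 to 0.0015. The cause was not tested. Whether the replicate numbers pair the samples cannot be decided from deviations within groups of 3, which are forced to cancel out. Deviations of libraries with the same number correlated between -0.244 and 0.0373, and those with different numbers between -0.113 and 0.206. With the number as a block, 2, 5 and 3 of the 10 genes and 1791, 3038 and 3886 of all genes passed, and the log2 ratio of Ezh2 to Ezh1 stayed at 0.59, -1.79 and -1.20.

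Tet1, Tet2 and Dnmt3b had 17 to 203 counts per library.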

Other observations

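Among the 8 markers of epicardium and epithelium, Upk3b, Wt1 and Tcf21 had their highest mean levels in SB431542-treated cells. The other markers did not follow. Krt19 had its highest mean in iECDCs (30.0 FPKM, against 28.0 after SB431542). Krt18 had 0 counts in each SB431542 library, and Krt8, Epcam and Cdh1 had at most 3 counts in every library. Upk3b and Wt1 passed the filter on low counts only through the SB431542-treated group, and their values are a description. Upk3b, a mesothelial gene, had 12, 10 and 9 counts in pECDC replicates 1, 2 and 3, 4, 8 and 9 in iECDCs, and 72, 97 and 87 in SB431542-treated cells. Wt1, a transcription factor of the epicardium, had 14, 4 and 3 counts in pECDCs, 2, 2 and 0 in iECDCs and 43, 14 and 39 in SB431542-treated cells. Tcf21 rose as well, with 57 to 68 counts after SB431542 and 14 to 28 in iECDCs (edgeR adjusted p = 0.00565). SB431542 replicate 2 had the lowest Wt1 count of its group and the highest Upk3b count.

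Cdkn2a and Cdkn2b, chosen after their values were seen, are cell cycle inhibitor genes. For Cdkn2a the pECDC libraries gave 407 to 562 counts, the iECDC libraries 0, 1 and 0, and each SB431542 library 0. Cdkn2b was at 0 in every iECDC and SB431542 library, beside 181 to 188 counts in pECDCs. The state of the locus was not measured.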
